A study of Mus musculus with 12 samples.

Results

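The 10 genes described here, Adipoq, Lep, Plin1, Cidec, Cfd, Fabp4, Retn, Lipe, Pck1 and Car3, are widely used markers of the mature fat cell. They were taken by symbol from a table of 54532 genes, and all 10 were found. Their transcripts were followed in 12 mammary tumors of female MMTV-neu mice, 4 per diet group. Their transgene is a normal, non-mutated Neu (Erbb2), which the promoter of the mouse mammary tumor virus switches on in mammary epithelium, and their tumors arise within the fat pad of the gland. The control mice ate powdered chow with the vehicle alone, which was ethanol with purified coconut oil, and the other groups ate the same chow with MSU-42011 or bexarotene at 100 mg/kg diet. Both compounds are agonists of the retinoid X receptor (RXR). All 3 groups carried the transgene, and the diets began at a tumor diameter of 4 mm and lasted 10 days. Poly(A) libraries were made from total RNA of frozen tumor sections, so each value is a mixture of all cells in the piece. Fewer cells of a type and less RNA per cell cannot be told apart in such data. The labels number the tumors 1 to 4 within a group, and these numbers are used here as names (Control 3, Bexarotene 1). The question put to the data was whether the fat-cell transcripts differed between the diets, and in which tumors they were found.

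White fat cells store triglyceride in a single large lipid droplet and release it as fatty acids when energy is needed. Their gene program is driven by PPAR gamma, which binds DNA as a heterodimer with RXR, together with the C/EBP family of transcription factors. In the mammary gland fat cells surround the epithelial ducts, and a growing tumor replaces or invades them. Several of the 10 genes are therefore known both as markers of fat tissue and as targets of the PPAR gamma and RXR pair, which an RXR agonist can also activate.

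The sequences just upstream of 5 of the genes are shown, those of Adipoq, Plin1, Cidec and Pck1 because their reads are set against each other within tumors, and that of Lep because it holds the pattern searched for. Promoter windows of 250 bases ending at a transcription start, from RefSeq on GRCm38.p6, were found for 8 of the 10 genes, in 10 windows. Capitals mark the letters TTGCNNAA, searched on both strands, a pattern of the kind bound by C/EBP factors.
Adipoq, chr16:23146286-23146535, plus strand: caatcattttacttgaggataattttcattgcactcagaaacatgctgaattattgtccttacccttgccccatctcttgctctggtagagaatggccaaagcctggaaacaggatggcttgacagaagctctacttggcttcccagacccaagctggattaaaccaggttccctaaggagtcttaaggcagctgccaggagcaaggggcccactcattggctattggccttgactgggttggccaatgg
Plin1, chr7:79732777-79733026, minus strand: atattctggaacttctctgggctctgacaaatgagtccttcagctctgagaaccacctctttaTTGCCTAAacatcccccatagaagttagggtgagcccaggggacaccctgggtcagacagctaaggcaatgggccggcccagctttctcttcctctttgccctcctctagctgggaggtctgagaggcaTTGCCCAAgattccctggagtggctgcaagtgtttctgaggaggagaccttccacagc
Cidec, chr6:113434765-113435014, minus strand: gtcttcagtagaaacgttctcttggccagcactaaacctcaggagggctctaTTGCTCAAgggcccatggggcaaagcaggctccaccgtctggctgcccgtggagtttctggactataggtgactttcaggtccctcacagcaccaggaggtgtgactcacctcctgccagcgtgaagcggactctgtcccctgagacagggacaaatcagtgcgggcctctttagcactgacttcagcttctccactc
Lep, chr6:29059971-29060220, plus strand: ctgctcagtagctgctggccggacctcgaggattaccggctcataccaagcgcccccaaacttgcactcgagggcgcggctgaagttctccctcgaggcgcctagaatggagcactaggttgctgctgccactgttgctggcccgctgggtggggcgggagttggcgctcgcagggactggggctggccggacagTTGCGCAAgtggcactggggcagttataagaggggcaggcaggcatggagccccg
Pck1, chr2:173152823-173153072, plus strand: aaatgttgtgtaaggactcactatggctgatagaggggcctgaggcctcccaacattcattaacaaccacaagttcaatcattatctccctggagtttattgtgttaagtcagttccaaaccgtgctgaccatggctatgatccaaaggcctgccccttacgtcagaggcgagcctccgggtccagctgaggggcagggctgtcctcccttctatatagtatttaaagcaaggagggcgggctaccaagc
The pattern was in 3 of the 10 windows, compared with 9.56% of 32851 windows of this length over all genes. It stood at 187 and 58 bases before the start in Plin1, at 198 bases before the inner of 2 starts in Cidec, and at 55 bases before the start in Lep, where it reads the same on both strands and overlaps itself. The nuclear receptor half-site AGGTCA was in 0 of the 10 windows (14% of all windows), the direct repeat of this half-site with 1 base between the copies in 0 (0.0335%), and TATAAA in 0 (12.4%). A match is a string of letters and not a bound site, and the absence of a string covers these windows only.

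Total counts ran from 16583413 to 25925027 per tumor (median 19342536), and 3 counts, taken as the floor of detection, equalled 0.111 to 0.184 CPM, the share of a library scaled to a fixed total. Levels between tumors are given as CPM after TMM scaling, and floors and binomial intervals cover counting error only. One library stood apart. Bexarotene 1 lay at -115 on the first principal component (33.6% of the variance), where the other tumors lay between -16.2 and 34.2, and its median correlation across genes with the other tumors was 0.915, compared with 0.961 or more for the rest. Of the 15504 genes that passed the filter on low counts, 19.1% were highest in Bexarotene 1. Results that rest on it are given with and without it.

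Fabp4 and Lipe were present in every tumor, whereas Adipoq, Lep, Plin1, Cidec, Retn and Pck1 were at or near 0 in most. Per length, as the mean FPKM over 12 tumors, the genes ranked Fabp4 (9.58 ± 7.02), Lipe (9.22 ± 1.62), Car3 (3.84 ± 8.62), Cfd (1.85 ± 3), Cidec (0.445 ± 1.03), Adipoq (0.283 ± 0.46), Plin1 (0.22 ± 0.482), Retn (0.172 ± 0.244), Pck1 (0.165 ± 0.414) and Lep (0.0144 ± 0.0345), with SD and n = 12. At every step of this order the difference between neighbors was smaller than the larger of their SDs. Without Bexarotene 1 the first pair changed places, with Lipe at 9.13 ± 1.67 FPKM and Fabp4 at 7.62 ± 1.9 FPKM (SD, n = 11). Fabp4 and Lipe were read in all 12 tumors, whereas Lep had reads in 2 tumors, Pck1 in 4, and Adipoq and Plin1 in 5 each. The level of 9 of the 10 genes was highest in Bexarotene 1, the exception being Lipe, which was highest in Bexarotene 4. Bexarotene 1 alone held 79.1% of all reads of Pck1, 74% of Cidec, 72.5% of Car3, 69.2% of Plin1, 62.5% of Lep, 49.3% of Adipoq, 46.7% of Retn and 46.5% of Cfd.

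**Figure D1:**
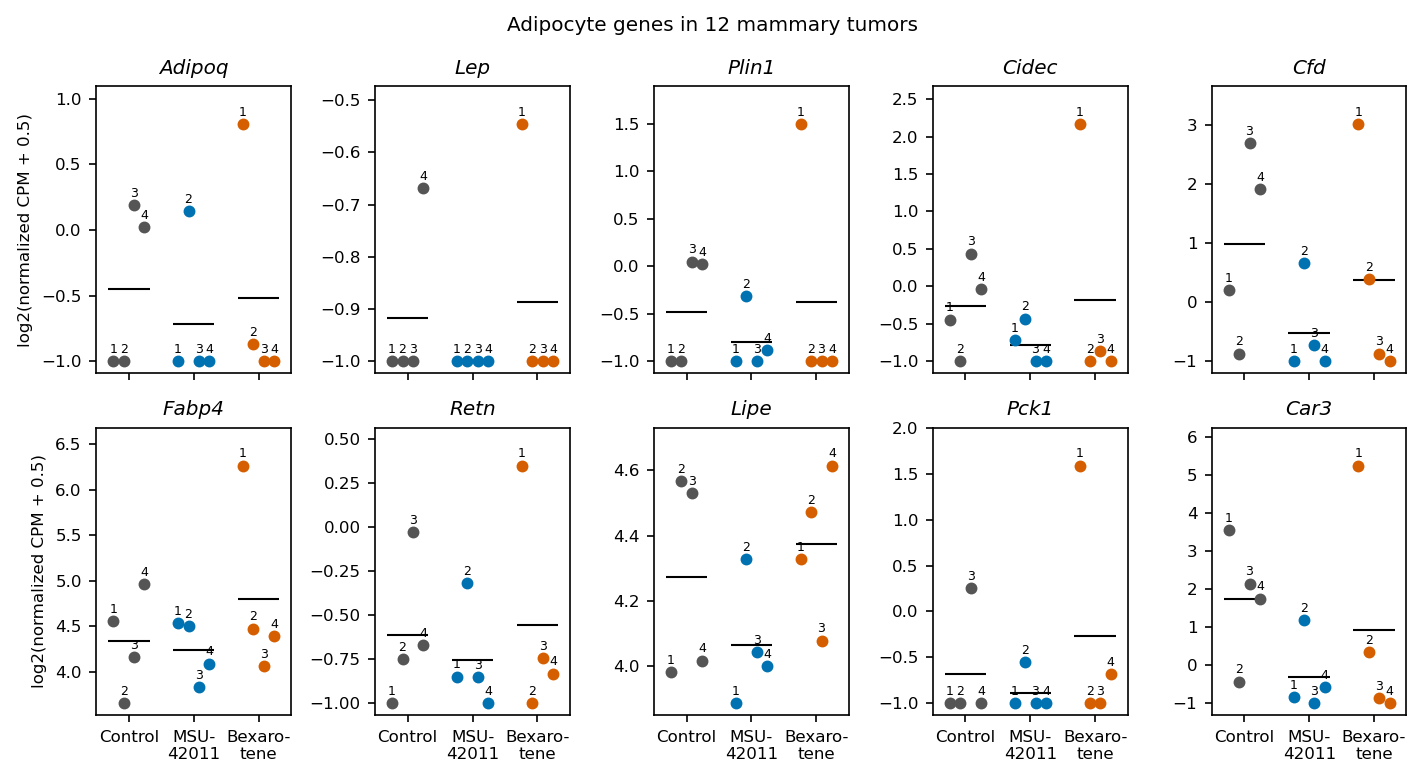
Levels of the 10 fat-cell genes as log2(normalized CPM + 0.5), 1 panel per gene with its own axis range. Points are tumors, labelled with their number within the group, and lines are group means of 4 tumors. Bexarotene 1 is the highest point in every panel but that of Lipe, and Control 3, Control 4 and MSU-42011 2 are raised above the other tumors in the panel of Adipoq.

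Among the secreted products, Adipoq encodes adiponectin, a hormone made almost only by fat cells. Its reads were 0, 0, 12 and 12 in Control 1 to 4, 0, 10, 0 and 0 in the MSU-42011 tumors, and 34, 1, 0 and 0 in the bexarotene tumors. The gene was thus above the floor in 4 tumors, which came from all 3 groups, and the groups overlapped. Its mean level was 0.29 ± 0.338 CPM in control, 0.151 ± 0.303 CPM with MSU-42011 and 0.326 ± 0.62 CPM with bexarotene (SD, n = 4 each).

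Lep encodes leptin, the hormone that reports fat stores to the brain. It had 3 reads in Control 4, 5 reads in Bexarotene 1 and 0 reads in the other 10 tumors, so only Bexarotene 1 exceeded the floor. Retn encodes resistin, a hormone of mouse fat cells. Its reads were 0, 2, 9 and 3 in the control tumors, 1, 5, 1 and 0 with MSU-42011, and 21, 0, 2 and 1 with bexarotene. Control 3, MSU-42011 2 and Bexarotene 1 were the 3 tumors above the floor.

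Cfd encodes adipsin, a serine protease of the alternative complement pathway that fat cells secrete. Its reads were 11, 1, 112 and 76 in the control tumors, 0, 18, 2 and 0 with MSU-42011, and 207, 17, 1 and 0 with bexarotene. The high tumors were the same as for Adipoq, with 5.99 CPM in Control 3, 3.28 CPM in Control 4, 1.09 CPM in MSU-42011 2 and 7.64 CPM in Bexarotene 1. Control 1, at 0.653 CPM, and Bexarotene 2, at 0.811 CPM, also lay above the floor.

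Among the lipid droplet proteins, Plin1 encodes perilipin 1, which coats the fat-cell droplet and controls access of lipases. Its reads were 0, 0, 10 and 12 in the control tumors, 0, 5, 0 and 1 with MSU-42011, and 63, 0, 0 and 0 with bexarotene. Cidec encodes a protein that fuses small droplets into a large one. Its reads were 4, 0, 16 and 11 in the control tumors, 2, 4, 0 and 0 with MSU-42011, and 108, 0, 1 and 0 with bexarotene. For both genes Bexarotene 1 was more than 4 times the next tumor, at 4.35-fold for Plin1 and 4.66-fold for Cidec over Control 3.

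The enzymes and carriers of lipid metabolism differed among themselves. Pck1, which encodes the cytosolic phosphoenolpyruvate carboxykinase that supplies glycerol for triglyceride, had 0, 0, 13 and 0 reads in the control tumors, 0, 3, 0 and 0 with MSU-42011, and 68, 0, 0 and 2 with bexarotene. Only Control 3 and Bexarotene 1 were above the floor, and Control 4 had no read of it although it had 12 reads each of Adipoq and Plin1.

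Fabp4 encodes the fatty acid-binding protein of fat cells, which capillary endothelial cells and macrophages also make. Its levels were 23, 12.1, 17.4 and 30.6 CPM in the control tumors, 22.7, 22.1, 13.7 and 16.5 CPM with MSU-42011, and 76.3, 21.7, 16.2 and 20.5 CPM with bexarotene. The other 11 tumors lay within 12.1 to 30.6 CPM, including tumors with no read of Adipoq or Plin1, and Bexarotene 1 was 3.71-fold their median. The 6 endothelial markers (Pecam1, Cdh5, Kdr, Tek, Tie1 and Emcn) summed to 72.8 to 201 CPM in the other 11 tumors and to 412 CPM in Bexarotene 1, 3.4-fold the median of the others. Each of the 6 had reads in every tumor. The 6 macrophage markers (Adgre1, Csf1r, Cd68, Mrc1, Fcgr1 and Mertk) summed to 530 CPM in Bexarotene 1, 5.9-fold the median of the others. All members of both lists were highest in that tumor, and their part in the Fabp4 level was not tested.

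Lipe encodes hormone-sensitive lipase, which breaks down stored fat in fat cells and acts in other tissues. Its levels were 15.3, 23.2, 22.6 and 15.7 CPM in the control tumors, 14.3, 19.6, 16 and 15.5 CPM with MSU-42011, and 19.6, 21.7, 16.4 and 24 CPM with bexarotene. It was the most even of the 10 genes, and in Bexarotene 1 it was 1.19-fold the median of the other tumors. Lipe lies on the minus strand and overlaps an antisense gene, 4732471J01Rik, which had 3 to 35 reads per tumor compared with 257 to 530 for Lipe. The strand setting of the counting was not given, so the split between them is uncertain.

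Car3 encodes carbonic anhydrase 3, abundant in fat cells and also in skeletal muscle. Its reads were 187, 5, 73 and 66 in the control tumors, 1, 29, 0 and 4 with MSU-42011, and 1009, 16, 1 and 0 with bexarotene. Control 1 stood out here, at 11.1 CPM, with 0 reads of Adipoq and Plin1. The 12 skeletal muscle markers summed to 177 CPM in Control 1 and 344 CPM in Bexarotene 1, and to 3.08 to 15.1 CPM in the other 10 tumors. The actin of muscle fibers, Acta1, had 1017 reads in Control 1 and 2579 in Bexarotene 1, compared with 20 or fewer in the other tumors. In Control 3, Car3 had 73 reads beside 2 reads of Acta1 and 97 of Atp2a1, another of the 12 muscle markers, of which 7 had no read there. The part of muscle in the Car3 values was not tested.

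The genes sit on 7 chromosomes. By the coordinates of the deposited tables, which match GRCm38, Adipoq spans chr16:23146536-23158028, Lep chr6:29060220-29073877, Cidec chr6:113424634-113435760, Plin1 chr7:79720218-79732903, Lipe chr7:25379527-25398710, Cfd chr10:79890853-79892655, Retn chr8:3655770-3660110, Pck1 chr2:173153048-173159273, Fabp4 chr3:10204088-10208576 and Car3 chr3:14863512-14872523. All 10 are annotated as protein-coding genes.

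Tumor by tumor, the low genes were found together. Fabp4, Lipe and Car3 were left out of a sum because they are known in other cell types as well, a choice made after the values were seen. The other 7 genes summed to 15, 3, 172 and 117 reads in the control tumors, 3, 45, 3 and 1 with MSU-42011, and 506, 18, 4 and 3 with bexarotene. In CPM the sum was 18.7 in Bexarotene 1, 9.19 in Control 3, 5.04 in Control 4 and 2.73 in MSU-42011 2, and 0.0419 to 0.89 in the other 8 tumors. Each group held at least 1 tumor with these transcripts and at least 1 with a sum below 0.2 CPM, and the groups overlapped. With Car3 added, 7 of the 8 genes had a read in Control 3, Control 4 and MSU-42011 2, and all 8 in Bexarotene 1.

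Markers of other cells were compared over the same tumors. The 6 fibroblast markers (Col1a1, Col1a2, Col3a1, Dcn, Lum and Pdgfrb) summed to 10400 CPM in Bexarotene 1, compared with 83 to 802 CPM in the other 11 tumors. Muscle markers were high in Bexarotene 1 and Control 1, and MSU-42011 2 was next, at 15.1 CPM. Of the 250 muscle-marker reads in MSU-42011 2, 199 were of Atp2a1. Control 3, Control 4 and MSU-42011 2 were within the range of the other tumors for the sums of fibroblast and endothelial markers. Within the fibroblast list, which collagens dominate, Dcn and Lum encode matrix proteoglycans. Both were higher in Control 3, Control 4, MSU-42011 2 and Bexarotene 1 than in 6 of the other 8 tumors. Dcn had 25, 23 and 56 reads in Control 3, Control 4 and MSU-42011 2, 134 in Control 1, 638 in Bexarotene 2 and 9341 in Bexarotene 1, and 0 to 10 in the other 6 tumors. Lum had 12, 13 and 13 reads in Control 3, Control 4 and MSU-42011 2, 42 in Control 1, 163 in Bexarotene 2 and 2667 in Bexarotene 1, and 0 to 6 in the others. Luminal epithelial and tumor markers (Krt8, Krt18, Krt19, Epcam, Cdh1, Erbb2 and Elf5) summed to 2890 CPM in Bexarotene 1, 0.583-fold the median of the others. Krt19 alone of this list went the other way, at 28.2 CPM in Bexarotene 1 and 1.96 CPM or less in the other tumors. The part of these cells in the fat-cell values was not tested.

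**Figure D2:**
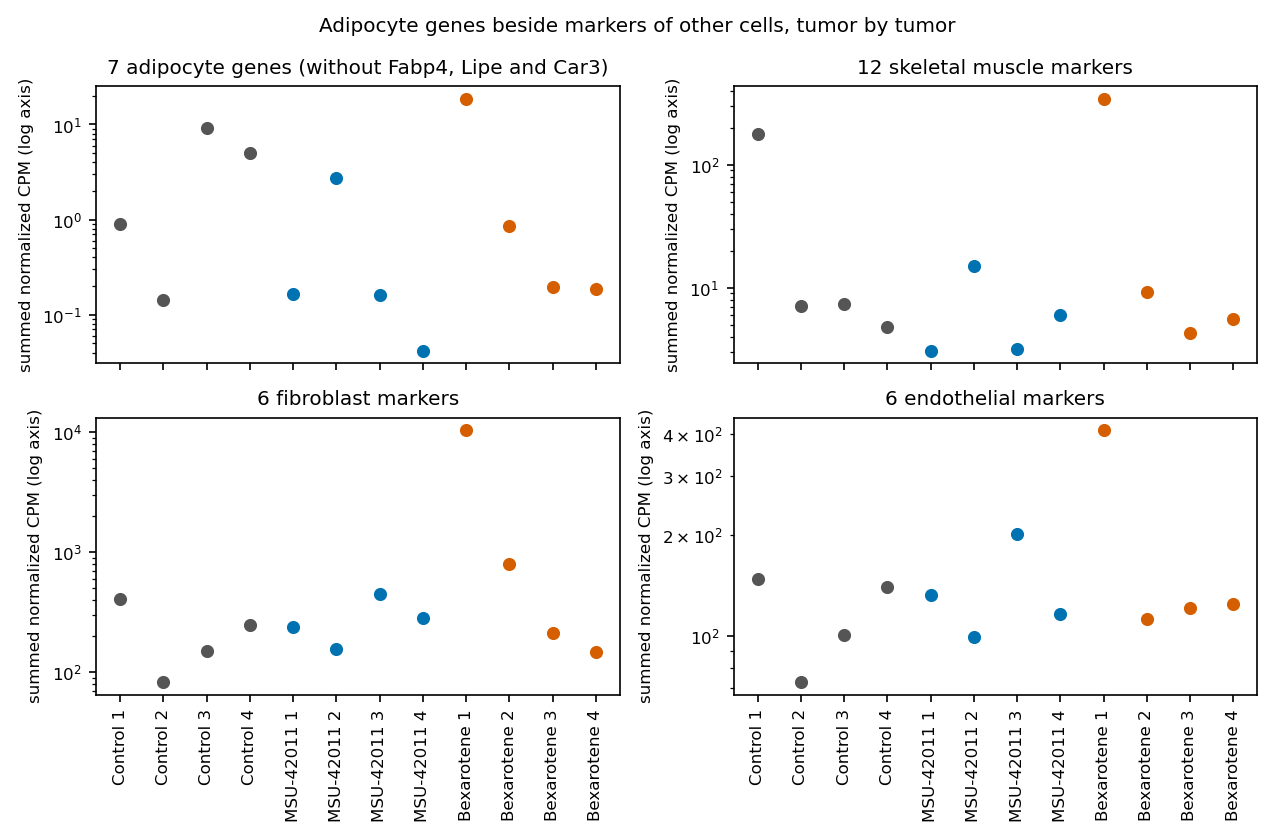
Summed normalized CPM per tumor on log axes, for 7 fat-cell genes and for markers of skeletal muscle, fibroblasts and endothelium. Each point is 1 tumor, colored by group. Bexarotene 1 is highest in all 4 panels, Control 1 is second for muscle, and Control 3, Control 4 and MSU-42011 2 are the next 3 tumors for the fat-cell genes.

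The identity of these transcripts was checked with 4 further fat-cell markers. Plin4, a droplet protein, had 315 reads in Bexarotene 1 (11.6 CPM) and 0.905 CPM or less in the other tumors. Pparg, the master regulator of fat-cell formation, was at 3.28 CPM in Bexarotene 1 and 0.374 to 1.36 CPM elsewhere. Lpl, the lipase that draws fatty acids from blood lipoproteins, was at 76.4 CPM and 11.4 to 34.7 CPM. Cebpa, a factor that works with PPAR gamma, was at 85.6 CPM and 41 to 69.4 CPM. All 4 were thus highest in Bexarotene 1, but they did not separate Control 3 and MSU-42011 2 from the rest. Control 4 had the most Plin4 reads below Bexarotene 1 (21). Its reads of Lpl (432) and Cebpa (1013) were below those of Control 2 (732 and 1465), a library with a lower total count. Most other genes of their lists were not highest there. Of 7 adipogenic transcription factors 3 were highest in Bexarotene 1, of 8 other droplet proteins 2, and of 8 uptake genes 3, and that tumor was at 0.641-fold the median of the others for Cebpb, 0.568-fold for Srebf1, 0.54-fold for Plin2 and 0.436-fold for Cd36. Without scaling for depth, Pparg had 7 reads each in Control 3 and MSU-42011 2, compared with 8 to 30 in the 9 others below Bexarotene 1. MSU-42011 2 had the lowest total count of all tumors.

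The makeup of the fat-cell reads was compared within the 4 tumors that held them, as a description of single libraries, with the 4 genes chosen after their values were seen. Of the reads of Adipoq, Plin1, Cidec and Pck1, Pck1 took 25.5% in Control 3 (13 of 51, exact 95% binomial interval 14.3 to 39.6) 24.9% in Bexarotene 1 (68 of 273, 19.9 to 30.5) and 13.6% in MSU-42011 2 (3 of 22, 2.91 to 34.9). In Control 4 it took 0 of 35 reads (exact 95% binomial interval 0 to 10), and the floor of 3 counts would be a share of 8.57%. Adipoq took 12.5% in Bexarotene 1 (8.78 to 17), 23.5% in Control 3 (12.8 to 37.5), 34.3% in Control 4 (19.1 to 52.2) and 45.5% in MSU-42011 2 (24.4 to 67.8). These intervals cover counting error only and do not compare diets.

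**Figure D3:**
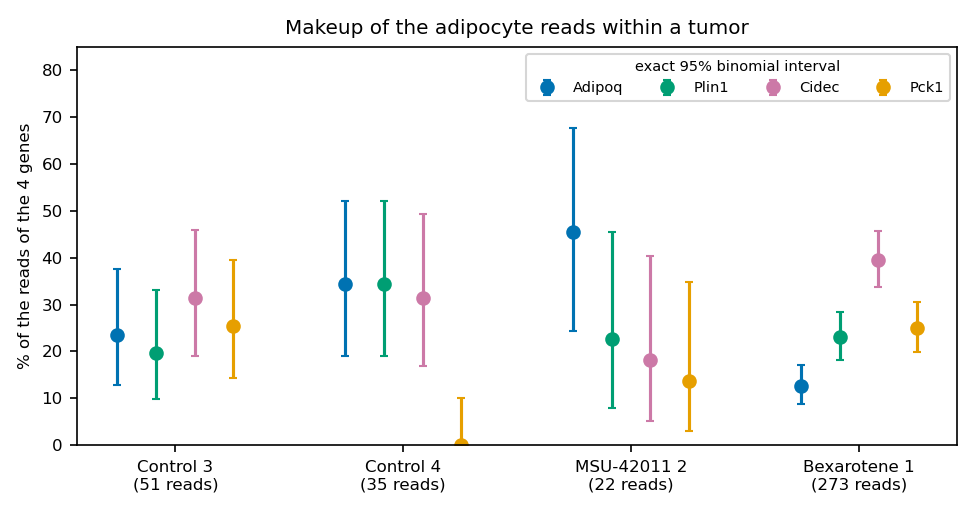
Share of Adipoq, Plin1, Cidec and Pck1 in the reads of these 4 genes, in percent, for the 4 tumors with fat-cell transcripts. Bars are exact 95% binomial intervals and the number of reads stands below each tumor. The Adipoq share is lowest in Bexarotene 1 at 12.5% and the Pck1 share is 0% in Control 4.

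Between the diets, no difference in a fat-cell gene passed the test. Only Cfd, Fabp4, Lipe and Car3, 4 of the 10 genes, passed the filter on low counts. For these the quasi-likelihood F test of edgeR was used, adjusted by the Benjamini-Hochberg method over 15504 genes. The other 6 (Adipoq, Lep, Plin1, Cidec, Retn and Pck1) were too low for the filter. All 10 genes were also compared by permutation (exact, two-sided, 4 tumors against 4), which cannot give a p below 0.0286. Across 3 comparisons and 10 genes, 30 such tests gave 0 values under 0.05, the smallest being 0.0571 for Car3 in MSU-42011 against control (adjusted over the 30 tests by the Benjamini-Hochberg method, 1). The groups of every gene overlapped in every comparison. The test of any difference among the 3 groups gave an edgeR adjusted p of 0.998 for each of the 4 genes, with 0% of all genes called, and 0 of the 4 had an unadjusted p under 0.05 (4.24% of all genes).

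MSU-42011 against control gave lower mean levels of the scarce genes in the treated tumors, within the spread of the tumors. Mean levels in control and MSU-42011 tumors were 2.49 ± 2.72 and 0.3 ± 0.53 CPM for Cfd, and 4.52 ± 4.65 and 0.495 ± 0.844 CPM for Car3 (SD, n = 4 each). The log2 fold change was -3.11 for Cfd (SE 1.73, 95% interval -6.88 to 0.66) and -3.22 for Car3 (SE 1.89, -7.33 to 0.88), each with an edgeR adjusted p of 0.9999. Fabp4 was at 20.8 ± 7.89 and 18.7 ± 4.36 CPM, and Lipe at 19.2 ± 4.27 and 16.4 ± 2.26 CPM. Their log2 fold changes were -0.15 (95% interval -1.14 to 0.84) and -0.23 (-0.63 to 0.17). The intervals of Cfd and Car3 were thus much wider than that of Lipe, and all of them included no change. EdgeR called 0 of the 4 genes (0% of all genes), 0 at an unadjusted p under 0.05 (1.99% of all genes), and DESeq2 called 0 of the 10 (0.00338% of all genes). DESeq2 gave no p for Pck1, which its Cook's distance filter set to missing, as for 1.13% of all genes. No gene lacked overlap between the groups (1.97% of all genes). The 4 log2 fold changes were below 0, as were those of 49.7% of all genes (50.3% were above 0), and their median was -1.67 beside 0.002 over all genes tested. For the 6 scarce genes the exact p ran from 0.257 to 1.

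Bexarotene against control depended on a single tumor. With all 12 tumors, Fabp4 was at 33.7 ± 28.5 CPM with bexarotene (SD, n = 4), a log2 fold change of 0.70 over control (SE 0.454, 95% interval -0.29 to 1.69, edgeR adjusted p = 0.8764). Car3 was at 9.51 ± 18.5 CPM, a log2 fold change of 1.09 (SE 1.65, -2.50 to 4.67, edgeR adjusted p = 0.945). Without Bexarotene 1 these became -0.09 (SE 0.281) and -3.97 (SE 1.52), with edgeR adjusted p of 0.9821 and 0.9778. Cfd, at 2.12 ± 3.69 CPM, went from -0.21 (SE 1.49, adjusted p = 0.9876 by edgeR) to -3.04 (SE 1.56). Lipe, at 20.4 ± 3.25 CPM, stayed at 0.09 (95% interval -0.31 to 0.49) with and 0.11 without that tumor. EdgeR called 0 of the 4 genes (0% of all genes), 0 at an unadjusted p under 0.05 (6.44% of all genes), and DESeq2 called 0 of the 10 (0.0356%). In this comparison DESeq2 gave no adjusted p for Pck1, Lep and Retn. Groups without overlap numbered 0 (2.03% of all genes). Of the 4 log2 fold changes, 3 were above 0 (55.3% of all genes, with 44.7% below 0), with a median of 0.40 beside 0.030 over all genes, and the median was -1.57 without Bexarotene 1 and -0.11 on log2(FPKM + 1). For the 6 scarce genes the exact p ran from 0.714 to 1, and from 0.171 to 1 without Bexarotene 1. The means of these genes with bexarotene, such as 0.581 ± 1.16 CPM for Plin1, 1.01 ± 1.98 CPM for Cidec and 0.658 ± 1.24 CPM for Pck1, had SDs larger than the means.

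The 2 agonists were given at the same dose and for the same time, and 3 pairs of groups were compared in all. In MSU-42011 against bexarotene, Car3 had a log2 fold change of -4.31 (SE 1.95, 95% interval -8.54 to -0.08, unadjusted p = 0.0464 and edgeR adjusted p = 0.9967), which became 0.74 (SE 1.53) without Bexarotene 1. Cfd went from -2.90 (SE 1.72, -6.65 to 0.85) to -0.07 (SE 1.6), and Fabp4 from -0.85 (SE 0.456, -1.84 to 0.14) to -0.06 (SE 0.28), each with an edgeR adjusted p of 0.9967 with all tumors. Lipe stayed near -0.32 (SE 0.183, -0.72 to 0.08), at -0.34 (SE 0.199) without that tumor. The intervals with all tumors do not show that the agonists act alike on these genes. EdgeR called 0 of the 4 genes (0% of all genes), and 1 at an unadjusted p under 0.05 (3.95% of all genes), which was Car3. DESeq2 called 0 of the 10 genes (0.153% of all genes), but it gave no adjusted p for Pck1, Lep, Retn and Adipoq. Groups lacked overlap for 0 genes (1.17%). The 4 log2 fold changes were below 0 (54.9% of all genes, with 45.1% above 0), with a median of -1.88 beside -0.024 over all genes, and -0.07 without Bexarotene 1. For the 6 scarce genes the exact p ran from 0.6 to 1, and from 0.429 to 1 without that tumor.

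**Figure D4:**
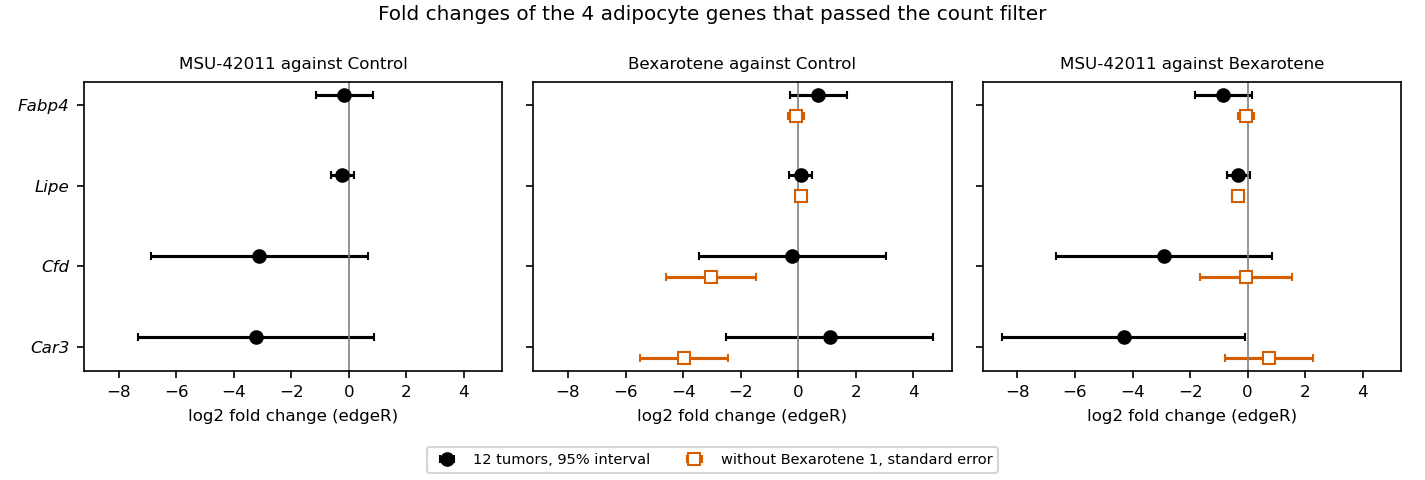
Log2 fold changes (edgeR) of the 4 fat-cell genes that passed the filter, 1 panel per comparison. Black points use all 12 tumors with 95% intervals, and orange squares leave out Bexarotene 1, with bars of 1 standard error. In both comparisons with bexarotene, Cfd, Car3 and Fabp4 move by more than Lipe when that tumor is left out.

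Each gene was also set against the median of the other 9 in its own tumor, a ratio within the tumor. In 30 exact permutation tests 0 values were under 0.05. The lowest was 0.0571 for Car3 in MSU-42011 against control (0.971 adjusted over the 30 tests by the Benjamini-Hochberg method). On this scale, in log2 units, Car3 was 1.66 lower with MSU-42011, at a mean of 0.51 compared with 2.17 in control. In tumors such as Control 1 and MSU-42011 4, however, 5 and 6 of the 10 genes had 0 reads. The median set against Car3 was then 0 CPM, so the value there reflects Car3 alone and is not a ratio to other fat-cell transcripts.

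The wider fat-cell program was read from lists drawn up by hand, covering 65 genes, 56 of them tested. The 7 progenitor genes described below were not counted among the 65. EdgeR called 0 of these in each comparison, with 2 at an unadjusted p under 0.05 in MSU-42011 against control (3.57%, compared with 1.99% of all genes), 3 in bexarotene against control (5.36% and 6.44%) and 5 in MSU-42011 against bexarotene (8.93% and 3.95%). DESeq2 called 1, 0 and 1 of them, in both cases Prdm16, compared with 0.00338%, 0.0356% and 0.153% of all genes. Among 7 adipogenic transcription factors, all tested, the most abundant were Srebf1 (mean 1670 FPKM), Cebpb (292 FPKM), Cebpa (23.6 FPKM) and Klf15 (2.5 FPKM). They were expressed in every tumor, including those with no Adipoq. Cebpb was at 523 ± 90.2 CPM in control, 378 ± 65.1 CPM with MSU-42011 and 422 ± 103 CPM with bexarotene, with an edgeR adjusted p of 0.9999 for MSU-42011 and 0.8702 for bexarotene against control. The median log2 fold change of the list was -0.01 in MSU-42011 against control, 0.31 in bexarotene against control and -0.26 between the agonists. Without Bexarotene 1 this median was 0.26 in bexarotene against control and -0.29 between the agonists. Of 8 other lipid droplet proteins, 6 were tested. Plin2, the droplet coat of many cell types and of milk-producing epithelium, averaged 838 FPKM, and in Bexarotene 1 it was at 430 CPM, below the 499 to 979 CPM of the other tumors. The direction of Plin2 in that tumor was thus opposite to that of Plin1 and Plin4.

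Of 9 lipolysis genes, 7 were tested, and G0s2, Pnpla2, Adrb1 and Mgll were the most abundant, with means of 68.8 to 321 FPKM. G0s2, an inhibitor of the lipase encoded by Pnpla2, was at 212 ± 104 CPM in control, 270 ± 147 CPM with MSU-42011 and 361 ± 162 CPM with bexarotene, and the groups overlapped (edgeR adjusted p of 0.9999 for MSU-42011 and 0.8515 for bexarotene against control). All 8 genes of fatty acid and glucose uptake were tested. Cd36, a fatty acid transporter and RXR target, was at 640 ± 356, 945 ± 369 and 462 ± 363 CPM in control, MSU-42011 and bexarotene tumors. All 14 genes of triglyceride synthesis and lipogenesis were tested. Their median log2 fold changes over control were 0.04 for MSU-42011 and 0.26 for bexarotene (0.35 without Bexarotene 1). Scd1 and Fasn, enzymes of fatty acid synthesis, were highest in Bexarotene 4, a tumor with no read of Adipoq, Plin1 or Cidec. In Bexarotene 1 the 14 genes summed to 2790 CPM, 0.557-fold the median of the other tumors, so the lipogenic genes did not follow the fat-cell markers.

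Of 12 PPAR gamma and RXR target genes outside the 10 markers, 10 were tested. Their median log2 fold change was -0.17 with MSU-42011 and -0.26 with bexarotene over control (-0.23 without Bexarotene 1). By edgeR, 0 had an unadjusted p under 0.05 in either comparison (1.99% and 6.44% of all genes). Between the agonists 1 did (3.95% of all genes), which was Acsl1 (unadjusted p = 0.0298 and edgeR adjusted p = 0.9967). Counts this small do not show whether these targets respond. Of 9 other secreted products 7 were tested, and 3 of the 9 were highest in Bexarotene 1. Retnla, a resistin-like product of macrophages and fat tissue, was at 69.5 CPM there and at 3.82 CPM or less elsewhere. Nampt, the most abundant of that list, was at 0.797-fold the median of the others in Bexarotene 1. Of 9 brown and beige fat-cell genes 7 were tested. Ucp1, the uncoupling protein that defines brown fat, had 0 to 5 reads per tumor and 0 in Bexarotene 1, and Elovl3 had no read in any tumor. The list summed to 53.7 CPM in Bexarotene 1, within the 27.5 to 61.7 CPM of the others. Prdm16, a regulator of the brown fat program, was at 5.29 ± 2.33, 0.665 ± 0.538 and 6.36 ± 2.4 CPM in control, MSU-42011 and bexarotene tumors, with an edgeR adjusted p of 0.9999 and 0.7702 for MSU-42011 against control and bexarotene. Its lowest tumors were those on MSU-42011, 3 of which had 6 to 8 reads, and that order was unlike the order of the fat-cell markers.

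The 7 genes of adipocyte progenitors were Pdgfra, Dlk1, Zfp423, Dpp4, Pi16, Ly6a and Cd34. They summed to 959 CPM in Bexarotene 1, 14-fold the median of the others. Of the 7, 6 were highest there, as were 19.1% of all genes that passed the filter. The fibroblast markers summed to 43.5-fold the median of the others in the same tumor, and the part of fibroblasts in these values was not tested. EdgeR called 0 of the 6 progenitor genes tested. At an unadjusted p under 0.05 there were 0 in MSU-42011 against control (1.99% of all genes), 3 in bexarotene against control (6.44%) and 3 between the agonists (3.95%). The median log2 fold change in bexarotene against control was 1.72, and 0.07 without Bexarotene 1. Between the agonists it was -1.62, and -0.09 without that tumor. Pi16, a marker of early progenitors and of fibroblasts, was at 451 CPM in that tumor. It had 75 reads in Control 1, 82 in Control 3, 58 in MSU-42011 2 and 897 in Bexarotene 2, and 0 to 19 in the other tumors below Bexarotene 1.

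The genes whose levels over the 12 tumors were most like the fat-cell genes were found by Spearman correlation with the median standardized level of the 10 markers. The 10 highest were Dpt (rho 0.860), Mmp3 (0.856), Retnla (0.847), Galnt16 (0.846), Cd300lg (0.832), Adprh (0.832), Il11ra1 (0.825), Cenpb (0.818), Gm16755 (0.811) and Idh2 (0.811), with Pearson's r of 0.408 to 0.844 over the 12 tumors. All points share the libraries and their depth. Dpt, which encodes the matrix protein dermatopontin, was at 184 CPM in Bexarotene 1, 15.2 CPM in Bexarotene 2 and 2.18 CPM in MSU-42011 2, and Mmp3, a matrix-degrading protease, at 27.4, 2.53 and 0.242 CPM. Cenpb and Idh2 varied little, from 178 to 262 CPM and from 59.9 to 100 CPM, so that the likeness of these genes was one of rank and not of size.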

How the data were processed

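Transcripts of 10 fat-cell genes were read from 12 tumors, 4 per diet, grouped by their labels. Read counts are as deposited by the authors, whole numbers per gene without normalization. The deposited FPKM values are the authors' counts divided by the library total and by a gene length. The submitters' processing notes list STAR 2.6.1d, featureCounts 1.5.0-p3 and DESeq2 without roles. The strand setting and build are not given in the sources used here, and coordinates of 98.3% of genes matched GENCODE M21 (GRCm38). Depth was 16583413 to 25925027 counts per tumor.

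Counts were scaled by TMM, filtered with filterByExpr and tested with edgeR 4.0.16 (quasi-likelihood F test, 1 fit of 3 groups, Benjamini-Hochberg adjustment over 15504 genes, threshold 0.05) in R 4.3.3. The code was tested on simulated data. Exact two-sided permutation tests used log2(normalized CPM + 0.5). The fold changes of members come from the fit on all genes. DESeq2 1.42.0, limma 3.58.1 on log2 FPKM, other normalization and filters, a replicate term and each tumor left out served as alternatives. P-values measure the spread between these tumors, and the study's methods give 4 mice per group. Within every group the counts of each pair of tumors differed by more than sampling noise.

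Named genes were the 10 markers, up to 4 most abundant genes per list, 4 further markers (Pparg, Cebpa, Plin4 and Lpl) and the 10 genes most like the markers. The sum of 7 genes, the 4 genes of the within-tumor shares and Lum, Ucp1, Elovl3 and Prdm16 were chosen after their values were seen. The members and lists were chosen with earlier results of these data known. The authors' own fold changes and p-values, and the reads, were not used here.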

Additional observations from a re-analysis of the deposited data

Results flagged for a closer look

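In 14 of 27 sets of 4 tumors (1 gene in 1 diet group, leaving out sets with no tumor above 3 reads), 1 tumor lay far from the other 3, with a gap to its nearest neighbor, as a share of the range of the set, above Dixon's critical value at 95%. Chance gives about 1 in 20 sets of ordinary values, but that rate does not apply here. The genes share tumors, and where most reads are 0 a set with 1 tumor above 3 reads has a wide gap by construction, so the values below are descriptions. Of the 14, 9 were in Bexarotene 1, with a gap of 1 for Lep and Plin1, 0.988 for Cidec, 0.98 for Car3, 0.962 for Adipoq, 0.951 for Pck1, 0.908 for Fabp4, 0.894 for Cfd and 0.875 for Retn. In MSU-42011 2 the gap was 1 for Adipoq, 0.905 for Car3, 0.901 for Cfd and 0.862 for Plin1. In Control 3 it was 1 for Pck1, whose reads were 0 in the other control tumors. A gap of 1 means that the other 3 tumors had equal values, here all 0 reads.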

How the results depend on the processing

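No fat-cell gene was called by edgeR, DESeq2 or limma under any alternative, and the lowest adjusted p of a single gene was 0.5339. Of 228 alternatives for the 4 genes tested, 212 kept their direction and 16 reversed it, without a call in any. The count of all genes called was 0 with edgeR, whereas DESeq2 called 1 in MSU-42011 against control, 6 in bexarotene against control, 25 between the agonists and 5 among the groups, and without its Cook's distance filter 9, 7, 44 and 5. With 1 tumor left out the count among the groups ran from 0 to 1, the 1 being without MSU-42011 2.

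The median log2 fold change of the markers tested with 1 tumor left out ran from -3.02 (without MSU-42011 2) to -1.22 in MSU-42011 against control, from -1.57 (without Bexarotene 1) to 0.66 in bexarotene against control, and from -3.35 (without MSU-42011 2) to -0.07 (without Bexarotene 1) between the agonists. On log2(FPKM + 1) the same 3 medians were -0.65, -0.11 and -0.63, and over all 10 markers without a filter -0.14, 0.09 and -0.29. On log2(FPKM + 0.1) the bexarotene and control one was -0.48. Over all 10 markers, edgeR without the filter on low counts gave -1.76, 0.56 and -2.81, and DESeq2 at its defaults gave -1.70, 0.58 and -2.50. Leaving out Control 1 and Bexarotene 1, the tumors with muscle transcripts, was chosen after seeing the data and gave -1.53 for bexarotene against control and -0.07 between the agonists. The same choice turned Fabp4 to -0.04 and Car3 to -3.02 in bexarotene against control, and Car3 to 0.75 between the agonists. With 1 tumor left out, the log2 fold change in bexarotene against control ran from -0.09 to 0.95 for Fabp4, -3.97 to 2.04 for Car3, -0.0044 to 0.19 for Lipe and -3.04 to 0.69 for Cfd. For Cfd it was above 0 without Control 3 (0.69), Bexarotene 2 (0.06), Bexarotene 3 (0.20) or Bexarotene 4 (0.20). Car3 between the agonists ran from -6.79 to 0.74, and Fabp4 in MSU-42011 against control from -0.34 to 0.10, above 0 without Control 4. Car3 in bexarotene against control was -0.36 on log2(FPKM + 1), with or without the filter, and -1.45 on log2(FPKM + 0.1). The cause was not tested beyond these choices.

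Same-numbered tumors correlated between -0.352 and 0.349, over 0.1 in 4 of 12 pairs, and 5 of 12 tumors correlated best with their own number. These correlations do not settle whether the numbers pair the tumors. With the replicate block edgeR again called 0 genes, and in bexarotene against control Car3 was -1.65 and the median of the markers -0.77. Depth limits the 6 scarce genes, most of whose values lie at or below 3 counts.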
